A study of Mus musculus with 21 samples.

Results

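The genes described here are 9 transcription regulators that act in meiotic and post-meiotic male germ cells: Mybl1, Tcfl5, Sox30, Rfx1, Rfx2, Rfx3, Crem, Taf4b and Taf7l. They were chosen by gene symbol, not by a measured value, and each of the 9 has 1 row among the 37620 genes of the deposited RNA-seq table. The values are FPKM, in which the fragments of a transcript are divided by its length and by the mapped fragments of the library, so that levels can be set beside each other between genes. The study used the RNA to relate transcription to the places where the recombination factor PRDM9 binds and is used. The RNA came from C57BL/6J (B6) male mice at 12 days post-partum (dpp), from germ cells enriched by digesting the testis with collagenase and trypsin and labelled as spermatocytes. The 12 RNA-seq libraries carry the sample numbers 186wt, 343wt, 444wt or 456wt, each on 3 libraries. No treatment or mutation separates the numbers, and the comparison they allow is that of 4 samples of 1 kind. Nothing in the labels says that the 3 libraries of a number came from separate animals, so each p-value below measures a difference against the spread between libraries of 1 number, which may be technical. Values of a number are means of its 3 libraries, and each mean ± SD takes the 4 numbers as replicates.

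Male meiosis begins in the mouse testis in the second week after birth. At about this age the study describes the germ cells as enriched for early meiosis, from pre-leptotene to zygotene. These come before pachytene, the stage in which homologous chromosomes are fully paired. MYBL1 (A-MYB) switches on many genes of that stage, among them those of the piRNA pathway, and TCFL5 is a basic helix-loop-helix factor of the same cells. SOX30, RFX2 and CREM are known for their roles after meiosis, when round spermatids form the flagellum and the compact sperm nucleus, and RFX1 to RFX3 bind the X-box of cilium genes. TAF4B and TAF7L are germ cell forms of subunits of TFIID, the complex that brings RNA polymerase II to promoters.

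Promoter sequences show which of these regulators carry, next to their own start site, the letters that others of the set are known to bind. Of the 9 regulators, 6 (Tcfl5, Sox30, Rfx1, Rfx2, Rfx3 and Taf7l) were read from the RefSeq promoter table (build GRCm38.p6, 250 bases before to 50 bases after each start). Each was searched on both strands for TAACNG (the core bound by MYB proteins), CACGTG (an E-box), TGACGTCA (the full cAMP response element, CRE, of CREB and CREM), TGACGT (its half-site, contained in the full CRE), GTTGCC (a half-site of the X-box of RFX factors) and ACAATG (a SOX core). Over all 32851 promoters of the table the share with at least 1 match was 23.3% for TAACNG, 7.15% for CACGTG, 1.79% for TGACGTCA, 7.51% for TGACGT, 12.5% for GTTGCC and 12.6% for ACAATG. The 4 promoters printed are the 3 with a MYB core and that of Taf7l, the most abundant of the set, with the matches in capitals. They lie at chr2:180642642-180642941 (Tcfl5, minus strand), chr11:45980060-45980359 (Sox30, plus strand), chr17:56830959-56831258 (Rfx2, minus strand) and chrX:134476441-134476740 (Taf7l, minus strand), and each reads 5′ to 3′ along its gene.
Tcfl5: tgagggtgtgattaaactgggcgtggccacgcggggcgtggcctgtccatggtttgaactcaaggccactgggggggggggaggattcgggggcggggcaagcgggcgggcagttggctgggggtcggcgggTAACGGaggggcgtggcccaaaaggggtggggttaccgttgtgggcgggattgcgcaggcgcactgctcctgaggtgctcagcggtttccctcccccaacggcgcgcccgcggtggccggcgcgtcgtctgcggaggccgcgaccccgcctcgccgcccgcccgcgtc
Sox30: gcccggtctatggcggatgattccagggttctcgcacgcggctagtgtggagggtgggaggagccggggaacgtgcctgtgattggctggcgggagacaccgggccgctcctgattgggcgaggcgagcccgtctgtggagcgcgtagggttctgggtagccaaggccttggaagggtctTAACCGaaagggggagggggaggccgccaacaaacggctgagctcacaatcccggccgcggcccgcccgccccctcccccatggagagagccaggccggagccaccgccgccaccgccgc
Rfx2: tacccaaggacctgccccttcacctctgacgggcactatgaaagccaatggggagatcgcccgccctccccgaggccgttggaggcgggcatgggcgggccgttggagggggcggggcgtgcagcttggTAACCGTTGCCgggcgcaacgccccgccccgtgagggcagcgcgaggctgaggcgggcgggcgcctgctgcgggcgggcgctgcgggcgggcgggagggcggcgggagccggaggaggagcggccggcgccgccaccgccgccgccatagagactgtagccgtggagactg
Taf7l: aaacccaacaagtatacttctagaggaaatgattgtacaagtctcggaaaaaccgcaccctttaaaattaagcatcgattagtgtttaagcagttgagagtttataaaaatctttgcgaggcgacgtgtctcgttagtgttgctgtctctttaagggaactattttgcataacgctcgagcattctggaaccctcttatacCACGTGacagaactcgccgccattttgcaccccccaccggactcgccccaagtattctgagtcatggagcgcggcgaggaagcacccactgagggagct

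In Tcfl5 the capitals mark a MYB core that begins 118 bases before the start, in Sox30 one that begins 70 bases before it, and in Taf7l an E-box that begins 49 bases before it. In Rfx2 the capitals mark a MYB core 121 bases before the start that runs into an RFX half-site 116 bases before it, so that the 2 share 1 base. The half-site GTTGCC was also found in Rfx1, 2 bases after the start, and in Rfx3, 32 bases after it, so that each of the 3 RFX genes held it. Rfx1 also held the CRE half-site TGACGT, 24 bases before the start. None of these 6 windows held the full CRE or the SOX core. These promoters were rich in G and C, from 60.3% in Rfx1 to 75.7% in Rfx2, except that of Taf7l with 47%. A match describes letters in a window and is not a measured binding site.

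**Figure D1:**
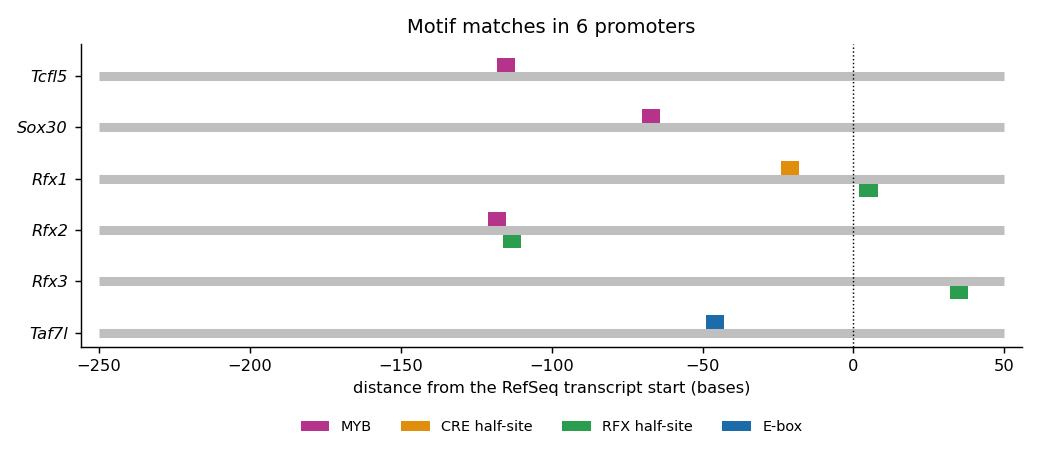
Motif matches in the promoters of 6 of the regulators. The x axis is the distance in bases from the RefSeq start (dotted line), each grey line is 1 promoter, and each coloured block is 1 match of a 6-base motif. MYB cores stand in Tcfl5, Sox30 and Rfx2, RFX half-sites in Rfx1, Rfx2 and Rfx3, and the E-box in Taf7l, 49 bases before the start.

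Depth was estimated from the steps between low FPKM values, which gave 13.1 to 18.2 M (mega) fragments a library. The study also states a sequencing depth for each sample, and the estimate was not reconciled with it. At the estimated depth a library held an estimated 83.7 to 176 fragments of Crem and 100 to 163 of Sox30, against 2073 to 3869 of Taf7l. By this estimate the low genes carry the larger counting error. The label spermatocytes was checked against marker genes. The 11 early meiotic markers had a median of 43.1 FPKM and means from 5.47 FPKM (Spo11, 2.82 in 343wt) upwards, led by Stra8, the gene of meiotic entry, with 103 ± 29.3 FPKM (SD, n = 4), and by Sycp3 of the chromosome axis with 73.1 ± 18.1 FPKM. The libraries also held RNA of other cells, with a median of 87.8 FPKM over 8 Sertoli cell markers and of 26.5 FPKM over 8 markers of spermatogonia. Round spermatid markers were near 0. Of 5, Prm2 was listed at 0 in all 12 libraries and the highest, Tnp1, had a mean of 0.96 FPKM.

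The 9 regulators were all detected, over a wide range of levels. Taf7l stood first with 128 ± 26.7 FPKM (SD, n = 4), above 97.7% of the 20795 genes tested, those whose mean reached 0.1 FPKM. It was followed by Tcfl5 with 26.4 ± 4.38, Taf4b with 22.6 ± 2.21, Rfx1 with 10.9 ± 1.16, Mybl1 with 9.15 ± 1.83, Crem with 6.91 ± 0.581, Rfx2 with 5.28 ± 0.915, Rfx3 with 4.07 ± 0.769 and Sox30 with 2.92 ± 0.584 FPKM. The first 3 of these lay in the top quartile of those 20795 genes, which began at 21.1 FPKM, and the median of the 9 was 9.15 FPKM against 5.005 FPKM over all genes tested. Between neighbours in this order the ranges over the 4 numbers were apart in only 2 places. Taf7l exceeded Tcfl5 by 2.26 ± 0.16 on the log2(FPKM + 0.1) scale, and Taf4b exceeded Rfx1 by 1.05 ± 0.05. Each of the other 6 pairs of neighbours overlapped, and in 2 of them, Rfx1 with Mybl1 and Rfx2 with Rfx3, the order was turned in 1 number. In 186wt Mybl1 was above Rfx1, with 11.3 against 10.4 FPKM, and in 444wt Rfx3 was above Rfx2, with 5.08 against 4.94 FPKM. With 4 numbers an exact sign-flip test cannot reach p = 0.05, and none was run.

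**Figure D2:**
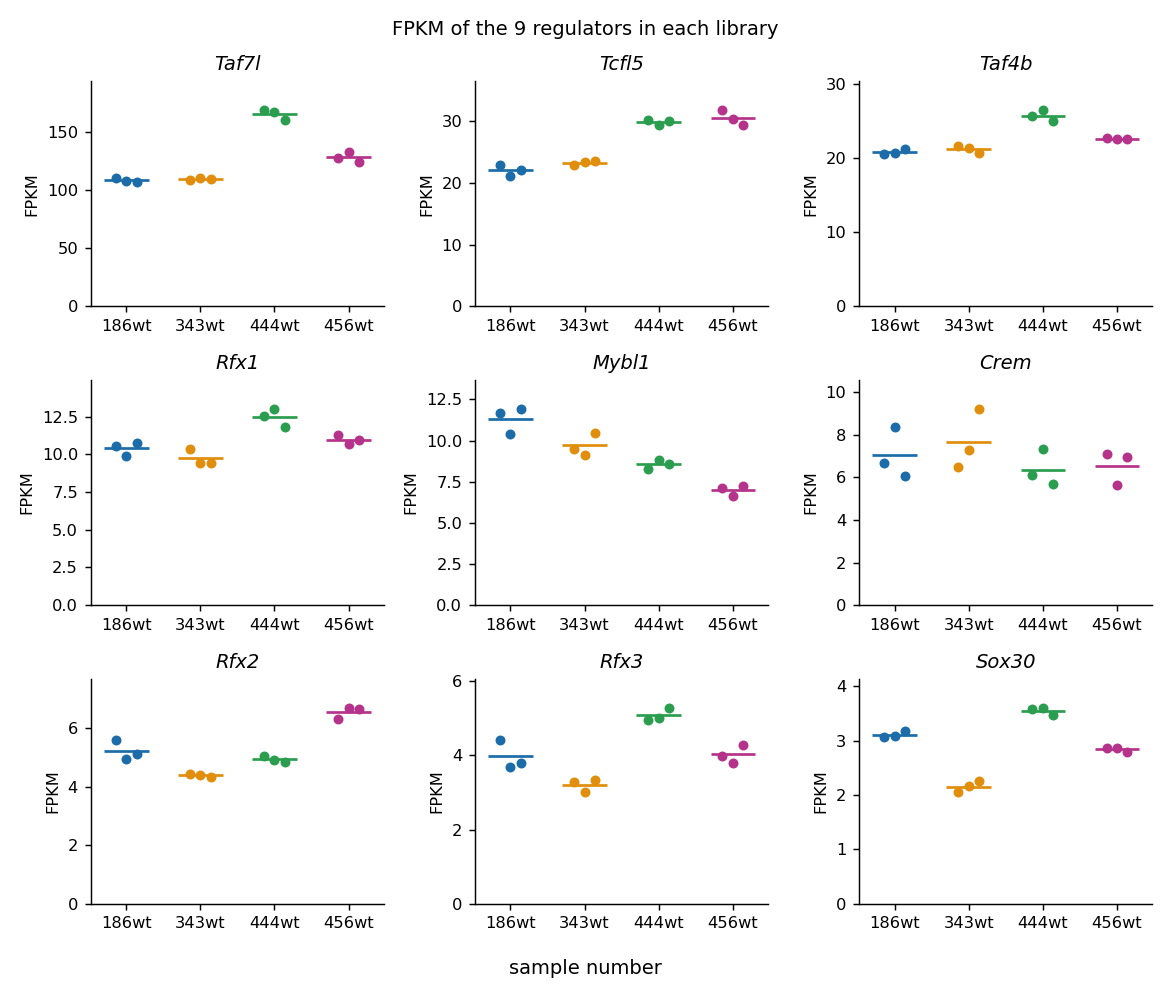
FPKM of the 9 regulators in each of the 12 libraries, ordered by mean level. The x axis is the sample number, the y axis FPKM from 0 on a scale of its own in each panel, each point is a library and each bar the mean of 3 libraries. Taf7l is highest in 444wt (160 to 169 FPKM), Mybl1 is highest in 186wt and lowest in 456wt, and the libraries of Crem overlap between all numbers.

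The 4 numbers were compared with limma on log2(FPKM + 0.1), with Benjamini-Hochberg adjustment over the 20795 genes. By its F-test 12107 genes, or 58.2%, differed between numbers at an adjusted p under 0.05, and of the 9 regulators 8 did, all but Crem. The regulators' median range between the highest and the lowest number was 0.57 on the log2 scale, against 0.55 over all genes tested. None had a range over 1, which 10.5% of the tested genes had together with a call. All 9 were above 1 FPKM, and low genes widen the range of the whole table. Among the 14348 genes whose mean reached 1 FPKM the median range was 0.42 and 77.6% were called, again with 8 of the 9 regulators. In bulk RNA a smaller share of cells of a type and less RNA per cell cannot be told apart.

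Scaling moved the numbers against each other. Rescaling each library by the median of ratios over genes moved 444wt against 343wt by 0.10 on the log2 scale and 456wt against 343wt by 0.09. The share of calls that were higher in the first number fell from 63.5% to 49.3% for 444wt against 343wt (6323 higher and 3635 lower as deposited, 4550 and 4681 rescaled). For 456wt against 343wt it went from 66.1% to 51.3%, for 444wt against 186wt from 61.6% to 48.5%, and for 456wt against 186wt from 62.6% to 51.2%. It rose from 48.6% to 56.3% for 343wt against 186wt and from 53.6% to 58.6% for 456wt against 444wt. The rescaled value is given below for each regulator whose call it ended.

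Of the DNA-binding factors of meiosis, Mybl1 (ENSMUSG00000025912), the regulator of pachytene genes, lies at chr1:9657496-9690290 on the minus strand of NCBI build 37, with 6 annotated transcripts. It had 11.67, 10.4 and 11.91 FPKM in the libraries of 186wt, 9.52, 9.13 and 10.46 in 343wt, 8.26, 8.82 and 8.6 in 444wt, and 7.14, 6.61 and 7.26 in 456wt. Its highest library of 456wt lay below every library of the other numbers, and 186wt and 343wt overlapped by 1 library, 10.46 in 343wt against 10.4 in 186wt. The F-test gave an adjusted p of 3.2e-05 (limma), and 456wt was lower than 186wt by 0.68 ± 0.07 (log2, SE). Mybl1 was the only one of the 9 that was lower in 444wt than in 186wt (-0.40 ± 0.07, adjusted p = 0.000576) and lower in 456wt than in 186wt (-0.68, adjusted p = 8.9e-06) by this test. Those directions were called in 16.3% and 15.5% of all genes tested. It was also the only one called lower in 456wt than in 343wt (-0.46 ± 0.07, adjusted p = 0.000201), a direction called in 14.2% of genes. Between 444wt and 343wt it missed the threshold as deposited (-0.18 ± 0.07, adjusted p = 0.0528) and passed it after rescaling (-0.28, adjusted p = 0.00614). The genes whose deviations over the 4 numbers came nearest to those of Mybl1, among 14348 genes whose mean reached 1 FPKM, were Sema5b, RP23-344J14.1 and Rufy2, with a root mean square difference of 0.02 on the log2 scale for each. Here and below, the nearest profiles are the closest of 14348 genes on only 4 values. Their differences lie below the SE of the regulator's own contrasts, so which genes rank nearest is uncertain. Shared control was not tested.

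Mybl1 stood between its 2 relatives. Here and in the other comparisons of relatives the libraries also held RNA of Sertoli and other cells, so the differences are not those of germ cells alone. Mybl2 (B-MYB), which acts in dividing cells, had 23.6 ± 3.67 FPKM, and Myb (c-MYB) had 0.232 ± 0.0665 FPKM. The difference Mybl1 minus Mybl2 was -0.84 in 186wt, -1.08 in 343wt, -1.69 in 444wt and -1.85 in 456wt on the log2(FPKM + 0.1) scale, so that Mybl1 was lower than Mybl2 in all 4 numbers, with a mean of -1.36 ± 0.48 (SD, n = 4). The difference spanned 1.01 between numbers, the widest span of the 9 pairs of relatives that were compared. Mybl1 exceeded Myb by 4.80 ± 0.38, a value that rests on a level of Myb near the pseudocount and was 3.03 with a pseudocount of 1.

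Tcfl5 (ENSMUSG00000038932), a basic helix-loop-helix factor, lies at chr2:180356661-180377413 on the minus strand of build 37, where it overlaps the collagen gene Col9a3 of the opposite strand by 234 bases. Its libraries had 22.85, 21.19 and 22.11 FPKM in 186wt, 22.88, 23.43 and 23.62 in 343wt, 30.29, 29.41 and 30.05 in 444wt, and 31.78, 30.31 and 29.35 in 456wt. The 6 libraries of 444wt and 456wt were all above the 6 of 186wt and 343wt, with no overlap. Tcfl5 was higher in 444wt than in 186wt by 0.44 ± 0.04 (log2, SE, adjusted p = 1.9e-06) and in 456wt than in 186wt by 0.47 ± 0.04 (adjusted p = 1.3e-06). Its difference between 456wt and 444wt was 0.03 ± 0.04 (adjusted p = 0.658) and between 343wt and 186wt 0.08 ± 0.04 (adjusted p = 0.160). Col9a3 had 4.56 ± 1.31 FPKM, and whether reads were counted by strand is not given in the sources used here. The nearest profiles to that of Tcfl5 were Meaf6, a subunit of histone acetyltransferase complexes, Lin54, the DNA-binding subunit of the MuvB core, and Ap2a2, a clathrin adaptor subunit, at 0.0086 to 0.011.

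Sox30 (ENSMUSG00000040489), an HMG-box factor of late meiosis and spermatids with 1 annotated transcript, lies at chr11:45793812-45831496 on the plus strand of build 37. It was the lowest of the set. Its libraries had 3.06, 3.09 and 3.17 FPKM in 186wt, 2.05, 2.17 and 2.25 in 343wt, 3.59, 3.6 and 3.47 in 444wt, and 2.86, 2.87 and 2.8 in 456wt, and no 2 numbers overlapped. Sox30 was higher in 444wt than in 343wt by 0.70 ± 0.07 (log2, SE, adjusted p = 9.4e-06, rescaled 0.60), which was its range. It was lower in 343wt than in 186wt by 0.51 ± 0.07 (adjusted p = 0.000483). Its difference of 0.19 ± 0.07 between 444wt and 186wt missed the threshold (adjusted p = 0.0556) and passed it in 3 alternatives, among them a minimum of 1 FPKM. The genes with the nearest profile were AC136021.1, 1700110I01Rik and Dgat1, an enzyme of triglyceride synthesis, at 0.01 to 0.02.

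The 3 RFX genes code for winged-helix factors that share a type of DNA-binding domain, and they differed in level and in profile. Rfx1 (ENSMUSG00000031706, chr8:86590735-86620891, plus strand) had 10.4, 9.73, 12.5 and 11.0 FPKM in 186wt, 343wt, 444wt and 456wt, each the mean of 3 libraries. The 444wt libraries (11.83 to 12.99) were above all others, and those of 186wt (9.89 to 10.78) overlapped with those of 343wt (9.39 to 10.36) and of 456wt (10.66 to 11.29). Rfx2 (ENSMUSG00000024206, chr17:56915320-56970431, minus strand) had 5.22, 4.39, 4.94 and 6.55 FPKM in the same order. Its 456wt libraries (6.31 to 6.69) were above all others, those of 343wt (4.34 to 4.42) below all others, and 186wt and 444wt overlapped. Rfx3 (ENSMUSG00000040929, chr19:27836211-28085656, minus strand) had 3.97, 3.21, 5.08 and 4.03 FPKM, with 444wt (4.95 to 5.28) above all others, 343wt (3.01 to 3.34) below them and 186wt and 456wt overlapping. By the F-test the adjusted p was 0.00117 for Rfx1, 6.4e-05 for Rfx2 and 0.000392 for Rfx3. The call of Rfx1 rested on 444wt and was lost without it (adjusted p = 0.0777).

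Rfx2, known for its part in the spermatid flagellum, was the only one of the 9 called higher in 456wt than in 444wt (0.40 ± 0.06, log2 and SE, adjusted p = 0.000536), a direction called in 15.1% of genes. In that comparison Rfx1 was lower by 0.18 ± 0.06 (adjusted p = 0.0297) and Rfx3 by 0.33 ± 0.09 (adjusted p = 0.0136), and both of these calls were lost when any 1 library of each number was left out (adjusted p = 0.0804 to 0.236 for Rfx1 and 0.0679 to 0.104 for Rfx3). Rfx1 exceeded Rfx3 in every number, by 1.41 ± 0.12 (SD, n = 4) on the log2(FPKM + 0.1) scale or 2.66-fold on average. Rfx2 was lower than Rfx1 in every number, by -0.73 in 456wt to -1.32 in 444wt and a mean of -1.04 ± 0.25. Rfx2 minus Rfx3 was 0.39 in 186wt, 0.44 in 343wt, -0.04 in 444wt and 0.69 in 456wt, so their order was not the same in all numbers. The nearest profiles were Dnpep, Gon4l and Ap1m1 for Rfx1 (0.0032 to 0.01), Spats2l, Kctd7 and 4933404O12Rik for Rfx2 (0.01 to 0.02), and Myo15, Gm12976 and 4930422G04Rik for Rfx3 (0.01 to 0.02). Rfx1 overlaps C330011M18Rik of the opposite strand (1.03 ± 0.205 FPKM) by 452 bases, and Rfx3 overlaps 2 non-coding genes of the opposite strand with means under 0.2 FPKM.

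Crem (ENSMUSG00000063889), whose transcripts code for activators and repressors that bind the CRE, lies at chr18:3266046-3337746 on the minus strand of build 37 and has 41 annotated transcripts, 34 of them coding. Its libraries had 6.67, 8.37 and 6.08 FPKM in 186wt, 6.51, 7.28 and 9.21 in 343wt, 6.1, 7.33 and 5.67 in 444wt, and 7.08, 5.63 and 6.94 in 456wt. Every pair of numbers overlapped, and no contrast passed the threshold, the F-test giving an adjusted p of 0.461. The largest difference was that of 444wt below 343wt, -0.26 ± 0.16 (log2, SE, adjusted p = 0.202). Crem was the only one of the 9 whose libraries spread more within a number than the numbers did among themselves, with a coefficient of variation (CV) of 15.4% within against 8.42% between. In the other 8 the CV within a number was 1.95% to 6.69% and that between numbers 9.77% to 20.9%. Counting error alone, at the estimated fragments of the median coding transcript, would give Crem a CV of 9.59%. It would give Sox30 a CV of 8.84%, while its libraries within a number differed by only 2.79%. Rfx2 (3.83% against 6.23%), Rfx3 (6.69% against 8.01%), Taf4b (1.95% against 2.75%) and Tcfl5 (2.97% against 3.42%) also spread less than this estimate. Mybl1, Rfx1 and Taf7l spread more, and the reason was not tested. The FPKM are summed over transcripts, so the balance of activator and repressor forms cannot be read from them.

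**Figure D3:**
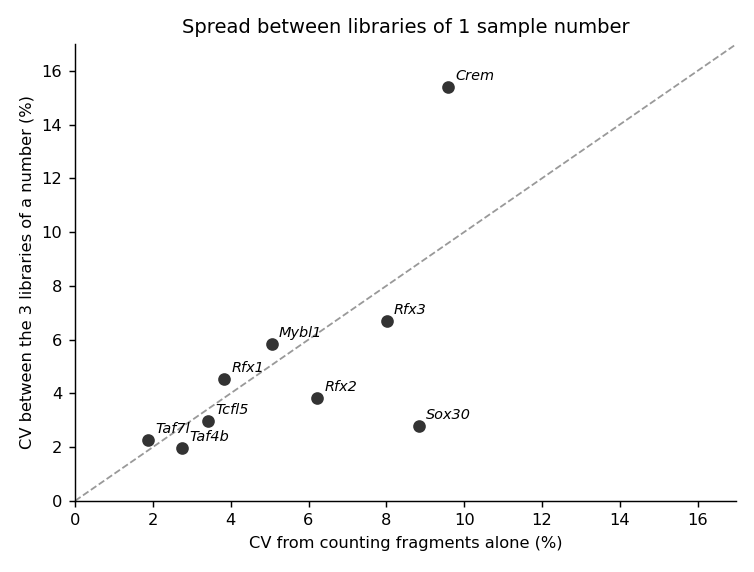
Spread between the 3 libraries of a number for each of the 9 regulators. The x axis is the CV in percent that counting the estimated fragments would give, the y axis the CV in percent found between libraries of a number (root mean square over the 4 numbers), each point is a gene and the dashed line marks equal values. Crem lies farthest above the line (15.4% against 9.59%) and Sox30 farthest below it (2.79% against 8.84%).

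Crem was lower than both of its relatives in all 4 numbers, in RNA of the whole preparation. Creb1 had 24.9 ± 1.69 FPKM and Atf1 had 51.6 ± 2.94 FPKM, and the difference was -1.84 ± 0.17 for Crem minus Creb1 and -2.88 ± 0.18 for Crem minus Atf1 (log2, SD, n = 4). Of 7 known or likely cofactors of CREM the most abundant were Crtc2 (38.3 ± 2.20 FPKM), Crtc3 (28.7 ± 6.49) and the acetyltransferase gene Ep300 (25.1 ± 1.35). By the F-test 6 of the 7 differed between numbers, beside 58.2% of all genes and 77.6% of those whose mean reached 1 FPKM. Outside the rule for named genes, and chosen after its value was seen, Fhl5 (ACT), the testis co-activator of CREM, had 0.50 ± 0.352 FPKM with 1.03 in 456wt and 0.293 to 0.36 in the others. RNA of Crem was present in the whole preparation at 12 dpp, from cells that were not told apart. The post-meiotic genes of the kind CREM is known to control were hardly detected. Of 11 such genes all were under 1 FPKM, with a median of 0.133 FPKM. Tnp1 (0.96 ± 0.590), Gapdhs (0.469 ± 0.154) and Odf1 (0.163 ± 0.0392) were the highest, and Prm2 and Smcp were listed at 0 in all 12 libraries. Of the 7 tested, 2 differed between numbers, beside 58.2% of all genes, a count that was 0 without the filter on low values and 0 without 444wt.

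Of the TFIID subunits, Taf7l (ENSMUSG00000009596) lies on the X chromosome at chrX:130994657-131011029 (minus strand, build 37). Its libraries had 110.31, 108.08 and 107.03 FPKM in 186wt, 108.73, 110.3 and 109.22 in 343wt, 168.67, 167.67 and 160.38 in 444wt, and 127.79, 132.64 and 124.59 in 456wt. All 444wt libraries were above all 456wt libraries, and these were above all of 186wt and 343wt, which overlapped. Taf7l had the smallest adjusted p of the 9 by the F-test, 9e-09 (limma). It was higher in 444wt than in 186wt by 0.61 ± 0.03 (log2, SE, adjusted p = 7e-09, rescaled 0.53) and higher in 456wt than in 186wt by 0.24 ± 0.03 (adjusted p = 1.4e-05), while 343wt and 186wt differed by 0.01 ± 0.03 (adjusted p = 0.788). It was lower in 456wt than in 444wt by 0.37 ± 0.03 (adjusted p = 1.2e-06). The nearest profiles were Gm4419, Arrdc2 and Vangl2, a gene of planar cell polarity, at 0.01 to 0.02.

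Taf4b (ENSMUSG00000054321) lies at chr18:14941754-15058868 on the plus strand. It had 20.54, 20.65 and 21.23 FPKM in 186wt, 21.6, 21.29 and 20.72 in 343wt, 25.6, 26.41 and 25.0 in 444wt, and 22.66, 22.57 and 22.61 in 456wt. The order of the numbers was that of Taf7l at a smaller range, with 444wt above 456wt and both above 186wt and 343wt, which overlapped. Taf4b was higher in 444wt than in 186wt by 0.30 ± 0.03 (log2, SE, adjusted p = 8.6e-06), and 456wt minus 444wt was -0.18 ± 0.03 (adjusted p = 0.000965). Its differences of 0.12 ± 0.03 between 456wt and 186wt and 0.09 ± 0.03 between 456wt and 343wt passed the threshold as deposited (adjusted p = 0.00793 and 0.0294). After rescaling they were 0.05 and 0.01 and did not (adjusted p = 0.190 and 0.889). The nearest profiles were Sars2, the mitochondrial seryl-tRNA synthetase, 5530601H04Rik and Paip2b, within 0.01.

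Both germ cell subunits and their general forms were detected. The RNA was that of the whole preparation, with Sertoli and other cells, so their balance within germ cells cannot be read from it. Taf4a had 19.9 ± 1.70 FPKM, and Taf4b minus Taf4a was 0.01 in 186wt, 0.25 in 343wt, 0.39 in 444wt and 0.05 in 456wt, a mean of 0.18 ± 0.18 (log2, SD, n = 4). Taf4b was thus higher in all 4 numbers, by a mean about as large as its SD. Taf7 had 57.8 ± 6.48 FPKM, and Taf7l exceeded it in all 4 numbers, by 1.02 in 343wt to 1.32 in 444wt and a mean of 1.13 ± 0.13, or 2.19-fold on average. Among 21 rows of other TFIID and TFIIA subunits and TBP relatives (20 genes, Taf9 with 2 rows), the highest were a row of Taf9 (103 ± 14.3 FPKM), Taf10 (76.6 ± 9.18) and Taf7, so that Taf7l was above each of them in mean. Tbpl2, the oocyte form of TBP, was listed at 0 in all 12 libraries. Of the 20 rows tested 17 differed between numbers, beside 58.2% of all genes and 77.6% of those whose mean reached 1 FPKM. In 444wt 15 were higher than in 343wt and none lower, where 30.4% of all genes were higher and 17.5% lower. Of the 14348 genes whose mean reached 1 FPKM, 5895 were higher and 3414 lower. The median range of these rows was 0.38, against 0.55 over all genes and 0.42 over those whose mean reached 1 FPKM. Gtf2a1l, the germ cell form of the large TFIIA subunit, named here after its value was seen, had 0.433 ± 0.182 FPKM.

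**Figure D4:**
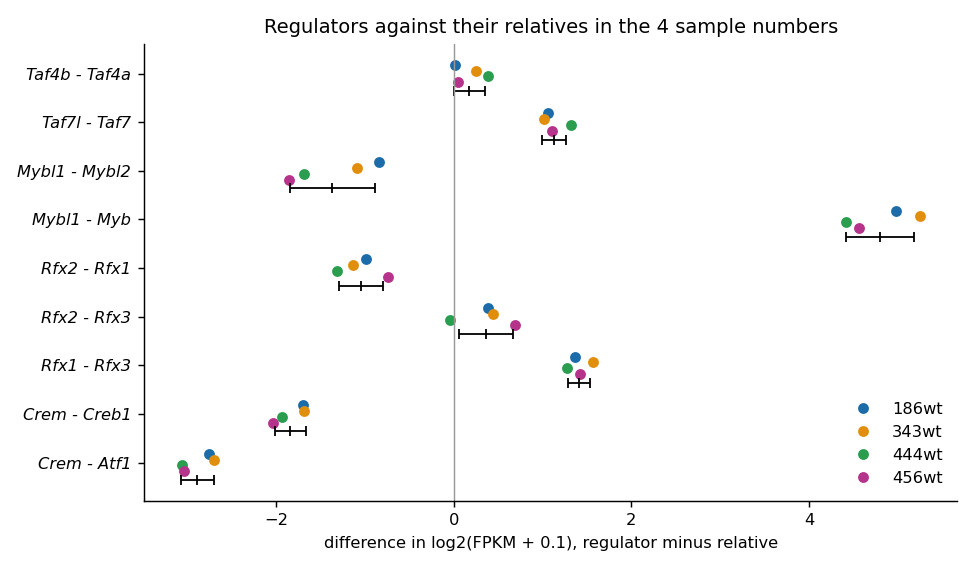
Regulators against their relatives, in RNA of the whole preparation. The x axis is the difference in log2(FPKM + 0.1), regulator minus relative, each coloured point is 1 of the 4 sample numbers (mean of 3 libraries), and the black bar below each row of points is the mean ± SD over the 4 numbers. Taf7l lies above Taf7 in all numbers (1.02 to 1.32), Crem below Creb1 and Atf1, and Mybl1 minus Mybl2 spans -0.84 to -1.85.

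Across the 6 pairs of numbers, which share samples and are given side by side, 37 of the 54 contrasts of the 9 genes passed the threshold. In 343wt against 186wt 4 were lower (Sox30, Rfx3, Rfx2 and Mybl1), where 10.5% of all genes were lower. In 444wt against 186wt 5 were higher (Taf7l, Tcfl5, Rfx3, Taf4b and Rfx1), where 26.1% of genes were higher. In 456wt against 186wt 4 were higher (Tcfl5, Rfx2, Taf7l and Taf4b), where 25.9% were. In 444wt against 343wt 7 were higher, all but Mybl1 and Crem, where 30.4% were. The same 7 genes were higher in 456wt than in 343wt, where 27.6% were. In 456wt against 444wt 6 were lower (Taf7l, Rfx3, Sox30, Mybl1, Rfx1 and Taf4b), where 13.1% were. In the other directions Mybl1 was the 1 gene lower in 444wt and 456wt than in 186wt and in 456wt than in 343wt, and Rfx2 the 1 gene higher in 456wt than in 444wt, against 16.3%, 15.5%, 14.2% and 15.1% of all genes. All 9 genes were above 1 FPKM, and each of these shares was larger among the 14348 genes whose mean reached 1 FPKM. Of those, 5895 were higher in 444wt and 5343 in 456wt than in 343wt. Against 186wt 5284 were higher in 444wt and 5034 in 456wt. In 343wt against 186wt 2182 were lower, and in 456wt against 444wt 2711 were lower. In that fit 39 contrasts of the 9 genes passed. These shares were set beside each other without a test.

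Of these 37 calls 23 held under all 11 alternatives run for them. They were those of Sox30 in 343wt against 186wt, of Mybl1, Taf4b, Taf7l and Tcfl5 in 444wt against 186wt, of Mybl1, Rfx2, Taf7l and Tcfl5 in 456wt against 186wt, of all but Rfx2 in 444wt against 343wt, of Mybl1, Rfx2, Sox30, Taf7l and Tcfl5 in 456wt against 343wt, and of Rfx2, Taf4b and Taf7l in 456wt against 444wt. The calls of Rfx2, Rfx3 and Mybl1 in 343wt against 186wt were each lost when library 1, 2 or 3 of every number was left out (adjusted p = 0.0714 to 0.299). So was that of Sox30 in 456wt against 444wt (adjusted p = 0.0723 to 0.0994), and that of Mybl1 there was lost without library 1 or 2 (adjusted p = 0.0642 to 0.0664). In 444wt against 186wt the call of Rfx1 was lost without library 2 (adjusted p = 0.0722) and that of Rfx3 without library 2 or 3 (adjusted p = 0.0648 to 0.0924). Rescaling ended the calls of Mybl1 in 343wt against 186wt (-0.20, adjusted p = 0.0606), of Rfx2 in 444wt against 343wt (0.07, adjusted p = 0.415), and of Rfx1 and Rfx3 in 456wt against 343wt (0.09 and 0.23, adjusted p = 0.263 and 0.0503), beside those of Taf4b given above. Rfx2 in 444wt against 343wt, and Rfx1 and Taf4b in 456wt against 343wt, also lost the call without library 1, 2 or 3. Rfx3 in 456wt against 343wt lost it without library 2 or 3, and Taf4b in 456wt against 186wt without library 1 or 2.

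The profiles over the 4 numbers, as deviations of log2(FPKM + 0.1) from the mean of a gene, fell nearest to each other in Rfx1 and Taf4b (root mean square difference 0.04) and farthest apart in Mybl1 and Tcfl5 (0.45). Mybl1 deviated by 0.33, 0.11, -0.07 and -0.36 in 186wt, 343wt, 444wt and 456wt, and Tcfl5 by -0.25, -0.17, 0.19 and 0.22. Of the 9, 5 had their highest value in 444wt (Sox30, Rfx1, Rfx3, Taf4b and Taf7l), 2 in 456wt (Tcfl5 and Rfx2), 1 in 343wt (Crem) and 1 in 186wt (Mybl1).

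**Figure D5:**
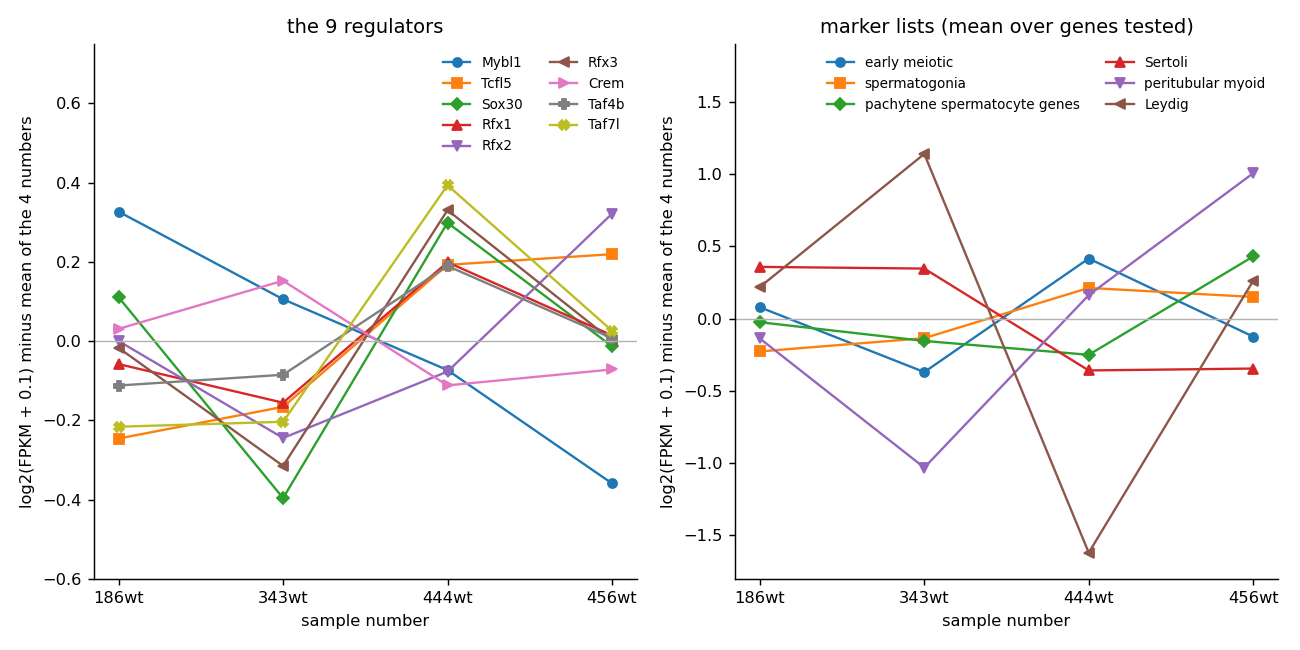
Profiles over the 4 sample numbers. The y axis is the deviation of log2(FPKM + 0.1) from the mean of the 4 numbers, for each of the 9 regulators (left) and as the mean over the tested genes of 6 marker lists (right, wider scale). Lines join the numbers for reading only. Mybl1 runs from 0.33 in 186wt to -0.36 in 456wt, and Taf7l, Rfx3 and Sox30 peak in 444wt, where the early meiotic list is also highest (0.42) and the Leydig list lowest (-1.62).

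Markers of several cell types moved between the same numbers. The counts stand beside 58.2% of all genes called by the F-test, and beside 30.4% called higher and 17.5% called lower in 444wt than in 343wt. Of the 14348 genes whose mean reached 1 FPKM, 77.6% were called by the F-test. In that fit 5895 were higher and 3414 lower in 444wt than in 343wt. All 11 early meiotic markers differed by the F-test and all 11 were higher in 444wt than in 343wt, with sums of 466, 381, 637 and 431 FPKM in 186wt, 343wt, 444wt and 456wt. All 8 markers of spermatogonia differed, with sums of 265, 283, 373 and 337 FPKM. All 8 Sertoli markers measured, of 9 listed, differed and all 8 were lower in 444wt than in 343wt, with sums of 4013, 4136, 2308 and 2485 FPKM. All 5 Leydig markers (sums of 55.0, 107, 15.8 and 59.9), all 5 peritubular myoid markers (533, 253, 670 and 1112), all 5 endothelial markers (15.5, 20.7, 13.4 and 32.1) and 4 of 5 macrophage markers (9.47, 22.9, 4.68 and 17.99) differed as well. None of these markers was listed at 0. Of 3 round spermatid markers tested 2 differed, with a sum over all 5 of 0.643, 0.900, 2.48 and 1.13 FPKM. By the means of the numbers, Taf7l, Tcfl5, Taf4b, Rfx1 and Rfx3 were higher in 444wt and 456wt than in 186wt and 343wt. There the Sertoli sum was lower, and the sums of spermatogonia, peritubular myoid and round spermatid markers higher. The early meiotic, Leydig, endothelial and macrophage sums did not divide this way. Mybl1 and Crem were lower in 444wt and 456wt, and Sox30 and Rfx2 kept to neither order. As deposited, Rfx1 and Rfx3 were not called in 456wt against 186wt, Mybl1 in 444wt against 343wt, or Crem in any pair. Rescaling also ended the calls of Taf4b, Rfx1 and Rfx3 in 456wt against 343wt and of Taf4b against 186wt. The part of these markers in the differences of the regulators was not tested.

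Genes listed for the stage that MYBL1 and TCFL5 are known for differed widely in level. Whether the RNA of the higher ones came from pachytene cells was not tested. Of 17 pachytene spermatocyte genes, 7 were under 1 FPKM, and the highest were Mael (111 ± 23.4 FPKM) and Mov10l1 (77.2 ± 12.9) of the piRNA pathway and Ybx2 (61.9 ± 14.2), which binds stored mRNA. Of the 15 tested 12 differed between numbers, beside 58.2% of all genes, with a median range of 0.80 on the log2 scale against 0.55 over all genes. Among genes whose mean reached 1 FPKM 77.6% differed, with a median range of 0.42. The genes of the list went both ways, and in 444wt 6 were higher and 4 lower than in 343wt, where 30.4% of all genes were higher and 17.5% lower. Mael was highest in 444wt, with 140 FPKM against 118 in 456wt and 96.9 in 343wt. Ldhc, the testis lactate dehydrogenase, named after its values were seen, was lowest there, with 1.84 FPKM against 13.5 in 456wt and 7.42 in 343wt. Piwil1 and Clgn, also named after their values were seen, were lowest in 444wt too (4.22 and 11.6 FPKM) and highest in 456wt (9.72 and 22.3 FPKM). Pgk2, Hist1h1t and Pou5f2 of the same list had means of 0.09, 0.13 and 0.02 FPKM.

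The genes of other MYB, RFX and CREB family members numbered 11, of which 6 of 10 tested differed between numbers, close to the 58.2% of all genes, with a median range of 0.28. Among genes whose mean reached 1 FPKM 77.6% differed, with a median range of 0.42. Atf1, Creb1 and Mybl2 were the highest of the 11. The count of 6 was 3 without 444wt and 2 without 456wt. Of 9 cilium genes of the kind RFX factors control, 8 differed, and 6 did without 343wt, 444wt or 456wt. Beside them stand 58.2% of all genes and 77.6% of those whose mean reached 1 FPKM. Among the 9 the highest were Rsph1 of the radial spoke (21.7 ± 4.70 FPKM) and the transport genes Ift122 (19.5 ± 1.03) and Ift88 (14.4 ± 1.76). Rsph1 was highest in 186wt and lowest in 444wt (25.7 and 14.9 FPKM). Ift122 and Ift88 were highest in 444wt (20.3 and 16.0 FPKM) and lowest in 343wt (18.1 and 12.3 FPKM). None of these 3 peaked in 456wt as Rfx2 did. Of the rest, named after their values were seen, Ift172, Dync2li1, Bbs4, Tekt1 and Foxj1 were highest in 456wt. For Bbs4 the margin over 444wt was small (10.62 against 10.57 FPKM). Dnali1 was highest in 186wt. The mean deviation of the list was also highest in 456wt (0.184 on the log2 scale). Whether these genes follow Rfx2 was not tested.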

How the data were processed

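RNA-seq was analysed in 12 libraries of 12-dpp B6 germ cells. The 9 Affinity-seq and ChIP samples were not analysed here. The authors aligned the reads with Bowtie 0.12.9 to transcripts of NCBI build 37 and computed with RSEM 1.2.8 the FPKM they deposited, 1 column a library. RSEM divides reads among transcripts they match, so values within families are less certain. The strand setting is not given in the sources used here. Genes were placed with GENCODE M1 of the same build.

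Libraries were compared by sample number with limma 3.58.1 in R 4.3.3 (lmFit, eBayes with trend, F-test and 6 contrasts) on log2(FPKM + 0.1), which understates differences of low genes. Genes with a mean under 0.1 FPKM were left out, which left 20795 of 37620. Other values came from Python 3.11.15 with numpy 2.4.6 and pandas 2.3.3, and plots from matplotlib 3.10.9. Scripts were tested on simulated data. Depth was estimated from the FPKM steps of 236 genes with a single transcript of 300 to 500 bases, and fragments of a regulator from its median coding transcript. Such errors cover counting only.

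The genes and lists were chosen with earlier results of these data known. Genes named were the 9 regulators, their relatives, the 3 highest genes of each companion list and those listed at 0 in all libraries, and the 3 nearest profiles of each regulator that passed the F-test. Alternatives were pseudocounts of 0.01 and 1, no filter or a minimum of 1 FPKM, rescaling, medians, a library number block, and leaving out libraries or numbers.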

Additional observations from a re-analysis of the deposited data

Results flagged for a closer look

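List medians, regulator levels and differences between regulators and relatives, 32 in all, were examined for a sample number far from the other 3. Of these, 2 passed Dixon's 95% critical value for 4 samples, where chance gives about 1.6. The median of the 5 endothelial markers was 6.48 FPKM in 456wt, against 2.27 to 2.81 FPKM in the other numbers. The median of the 5 round spermatid markers was 0.23 FPKM in 444wt, against 0.0567 to 0.08 FPKM in the others, all low values. None of the 9 regulators had a number that stood apart in this way.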

How the results depend on the processing

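The F-test called 8 regulators under each alternative except without 444wt, which gave 7, and the count over all genes ran from 9516 to 11295 with libraries or numbers left out, against 12107. The library numbers did not pair the samples (correlations of deviations of libraries with the same number -0.06 to 0.13). With them as a replicate block 11774 genes and 8 regulators were called. In the same fit Rfx2 lost and Mybl1 gained the call in 444wt against 343wt. Of the contrasts of single regulators 531 kept their side of the threshold under an alternative, 9 gained a call, 48 lost one and 6 turned in sign, none of these called. The 6 were Rfx3 in 456wt against 186wt (-0.042 rescaled, and -0.049 to 0.11 with 1 library of each number left out) and Crem with 1 library of each number left out, in 456wt against 444wt (-0.082 to 0.25), in 456wt against 186wt (-0.24 to 0.14) and in 343wt against 186wt (-0.12 to 0.28). The 37 pairwise calls fell to between 24 and 26 of 54 with 1 library of each number left out, and were 15 at fewest with a number left out, where only 27 contrasts remain. The order of the 9 levels kept 7 to 9 places within single numbers, with 7 in 186wt and in 444wt. With a pseudocount of 1, Mybl1 minus Myb was 3.03 and Rfx1 minus Rfx3 was 1.24. The 6 calls among MYB, RFX and CREB relatives ranged from 2 to 5 with a number left out, and the 2 among post-meiotic genes from 0 to 3, and were 0 with no filter. Fewer samples or other genes enter each of these fits, and other causes were not tested. By estimated fragments Crem and Sox30 have the largest counting error, though libraries of Sox30 within a number spread less than that.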
